A study of Mus musculus with 32 samples.

Results

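The interaction of 2 siRNAs was examined in mouse primary white adipocytes that were not loaded with cholesterol. The question was whether silencing Nfe2l1 and Atf3 together changed each mRNA by the sum of the separate effects. It rests on 16 of the 32 libraries of the series, chosen by their labels as the 4 siRNA groups given control treatment, with 4 libraries a group. The cells came from subcutaneous fat of mice and were kept in DMEM F-12 with serum, and their poly(A) RNA was sequenced. All 16 libraries are of these cells in control treatment, below called control medium, whose content is not described in the sample titles. The first group received siRNAs against both Nfe2l1 and Atf3. The second received siNfe2l1 alone and the third siAtf3 alone, and the labels give these 3 genotypes as knockdowns of the genes named. The fourth received a scrambled siRNA, and its cells are labelled wild type. The other 16 libraries repeat these groups with cholesterol (400 µM for 6 h, carried by methyl-β-cyclodextrin) and served here to estimate the spread and for comparison.

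siRNAs lower an mRNA for a time and leave a remainder, so no group is a null. Libraries of a group are labelled as biological replicates. Nothing says whether they came from separate mice or cultures, so p-values measure only the spread between these libraries. The RNA is that of whole cultures, in which fewer cells of a type and less RNA per cell cannot be told apart. The adipocyte label was checked against marker genes. Adipoq stood between 676 and 1000 CPM (read counts relative to a scaled library size) and Plin1 between 1550 and 1800 CPM in every library. Other cell types were represented, with the fibroblast and progenitor marker Pdgfra between 265 and 374 CPM, the endothelial marker Pecam1 between 115 and 167 CPM and the macrophage marker Adgre1 between 9.95 and 20.6 CPM. The 10 mesothelial and epithelial markers summed to 8.44 to 11.2 CPM, although Epcam, Krt5 and Krt14 stood at no more than 0.0792 CPM. The 7 T cell markers summed to 1.2 to 2.24 CPM, with Trac at 0.81 to 1.54 CPM and Cd3d and Cd3g at 0 in all 16. Total counts per library ran from 24263362 to 33828418, and the second highest was 26496165.

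NFE2L1 is a transcription factor held in the endoplasmic reticulum that raises the genes of proteasome subunits when proteasome activity falls short, and in brown fat it is known to be needed for thermogenesis. ATF3 is a stress-induced factor of the bZIP family, as is NFE2L1, and is known mainly as a repressor of inflammatory genes. White adipocytes make fatty acids from citrate that leaves the mitochondrion, and store them as triglyceride. When 2 treatments act on separate steps, their effects on the log2 scale are often taken to add, which means that fold changes multiply. Here the additive level of a gene is its mean with siNfe2l1 times its mean with siAtf3, divided by its mean with scramble. The departure is the log2 difference (both siRNAs minus siNfe2l1) minus (siAtf3 minus scramble). A positive departure means that the level with both siRNAs was above the additive level. The same number is the siNfe2l1 effect in the presence of siAtf3 minus that in its absence.

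The promoters of 3 called genes of fatty acid synthesis are printed, chosen after their values were seen, to show a window with no match, one with a single match and one with several matches to the motifs searched. They are RefSeq sequences of build GRCm38.p6, from 250 bases before the gene's start to 50 after it, written 5′ to 3′ on the strand of the gene. Capitals mark matches on either strand to 6 motifs: the E-box CACGTG, the sterol response element TCACNCCAC, the cAMP response element TGACGTCA, the AP-1 site TGANTCA, the antioxidant response element TGACNNNGC and the NF-Y box CCAAT, of which the last, read on the other strand, appears as ATTGG. Acly lies at chr11:100527951-100528250 on the minus strand, Elovl6 at chr3:129532136-129532435 on the plus strand and Slc25a1 at chr16:17928170-17928469 on the minus strand.
Acly: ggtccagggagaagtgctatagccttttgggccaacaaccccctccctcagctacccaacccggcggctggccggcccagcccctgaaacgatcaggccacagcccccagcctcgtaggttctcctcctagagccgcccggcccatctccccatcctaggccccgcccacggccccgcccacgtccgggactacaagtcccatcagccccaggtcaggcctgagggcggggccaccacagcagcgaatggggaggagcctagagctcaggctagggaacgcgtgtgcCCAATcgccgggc
Elovl6: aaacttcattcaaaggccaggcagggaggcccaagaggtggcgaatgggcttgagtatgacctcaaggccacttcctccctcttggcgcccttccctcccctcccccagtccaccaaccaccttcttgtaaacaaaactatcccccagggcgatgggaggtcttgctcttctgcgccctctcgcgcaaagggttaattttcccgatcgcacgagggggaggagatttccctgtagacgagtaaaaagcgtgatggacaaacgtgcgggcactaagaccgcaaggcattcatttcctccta
Slc25a1: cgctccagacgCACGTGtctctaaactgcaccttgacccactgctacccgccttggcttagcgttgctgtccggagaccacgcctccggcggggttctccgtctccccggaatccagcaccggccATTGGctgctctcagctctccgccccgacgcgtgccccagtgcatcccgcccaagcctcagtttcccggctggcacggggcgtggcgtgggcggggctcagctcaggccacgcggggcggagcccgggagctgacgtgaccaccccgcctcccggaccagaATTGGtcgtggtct
The Acly window held 1 CCAAT match and the Elovl6 window no match to any of the 6 motifs. The Slc25a1 window held 1 CACGTG and 2 CCAAT matches. Of the 17 fatty acid synthesis genes 14 had a promoter in the RefSeq table, and CCAAT was found in 9 of them (64.3%), against 37.9% of all 27025 promoters of that length. CACGTG was found in 2 of the 14 (14.3%) and 7.24% of all promoters, and TGACGTCA in 2 (14.3%) and 1.88%. TGACNNNGC was found in 2 (14.3%) and 12.5%, and TGANTCA and TCACNCCAC in 1 each (7.14%), against 7.93% and 1.22%. Matches were not confined to called genes. CCAAT lay in the called Acly, Acss2 and Slc25a1, and in Acacb, Fasn, Elovl5, Srebf1, Thrsp and Pnpla3, not called in the main fit. TGACGTCA lay only in Elovl5 and Pnpla3 and TCACNCCAC only in Mlxipl, also not called there. The called genes Scd1 and Fads1 had no promoter in that table. Among the genes above the additive level 169 promoters were matched, and 41.4% held CCAAT, 7.1% CACGTG, 5.33% TGANTCA, 1.78% TGACGTCA and 1.18% TCACNCCAC, while TGACNNNGC was found in 27. Among 77 matched promoters of genes below the additive level 40.3% held CCAAT, 10.4% CACGTG, 9.09% TGACNNNGC, 5.19% TGANTCA, 2.6% TGACGTCA and 2.6% TCACNCCAC. The 11735 matched promoters of all genes tested held CCAAT in 38.5%, TGACNNNGC in 14.8%, CACGTG in 9.87%, TGANTCA in 5.39%, TGACGTCA in 3.09% and TCACNCCAC in 1.12%. These are matches of letters, and no binding was measured.

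Silencing was weaker with both siRNAs. The mRNA of Nfe2l1 (ENSMUSG00000038615, GRCm39 chromosome 11, 96708240 to 96720794, minus strand) stood at 112, 115, 116 and 113 CPM in the 4 libraries with both siRNAs. With siNfe2l1 alone it stood at 79.5, 80.2, 61.5 and 73.8 CPM. With siAtf3 alone it stood at 474, 479, 473 and 492 CPM, and with scramble at 479, 489, 493 and 487 CPM. Every library with both siRNAs was above every library with siNfe2l1, and libraries with siAtf3 and with scramble overlapped. The mean with both siRNAs was 114 ± 1.91 CPM (SD, n = 4) and that with siNfe2l1 was 73.8 ± 8.66 CPM. The log2 difference between them was 0.63 ± 0.07 (SE; adjusted p = 6.11e-09, edgeR quasi-likelihood test). A two-sided exact permutation test of these 8 libraries gave p = 0.0286, the smallest that 70 regroupings can give.

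In the presence of siAtf3, siNfe2l1 left 23.8 ± 0.399% of the Nfe2l1 mRNA (SD over 4 libraries, relative to the siAtf3 mean). In its absence siNfe2l1 left 15.2 ± 1.78% (relative to the scramble mean). The observed mean was 114 CPM and the additive level 72.7 CPM. The departure of 0.65 ± 0.10 passed the test (adjusted p = 7.14e-05). It ranged from 0.57 to 0.69 when each of the 16 libraries was left out in turn and passed each time.

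Atf3 mRNA (ENSMUSG00000026628, GRCm39 chromosome 1, 190902493 to 190950236, minus strand) stood below Nfe2l1 mRNA in every library of control medium. It stood at 16.3, 13.6, 14.8 and 16.7 CPM with both siRNAs, against 11, 9.1, 10.4 and 10.1 CPM with siAtf3 alone. With siNfe2l1 it stood at 34, 33.3, 25.4 and 34.6 CPM and with scramble at 24, 28.5, 25.6 and 29.1 CPM. Libraries with both siRNAs were all above those with siAtf3 and all below the other 2 groups. The exact permutation test of both siRNAs against siAtf3 gave p = 0.0286, again the smallest possible. The log2 difference was 0.60 ± 0.32, which did not pass in the fit of all 8 groups (adjusted p = 0.341) but passed in a fit of the 4 control groups alone (0.60, adjusted p = 0.0003). The fit of 8 groups shares 1 estimate of the spread with the cholesterol libraries.

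With siNfe2l1 present, siAtf3 left 48.2 ± 4.44% of the Atf3 mRNA, relative to the siNfe2l1 mean. Without siNfe2l1 it left 37.8 ± 2.91%, relative to the scramble mean. The observed mean was 15.3 CPM and the additive level 12 CPM. The Atf3 departure of 0.35 ± 0.43 did not pass (adjusted p = 0.837, and 0.141 in the fit of 4 groups). On the plain CPM scale, where additivity means that differences add, it was 0.197 CPM. Both silenced genes thus had more mRNA with both siRNAs than with their own siRNA alone, while a departure from additivity was called for Nfe2l1 and not for Atf3. The dose of each siRNA in the combined treatment is not given in the sources used here, and its part in the weaker silencing was not tested.

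**Figure D1:**
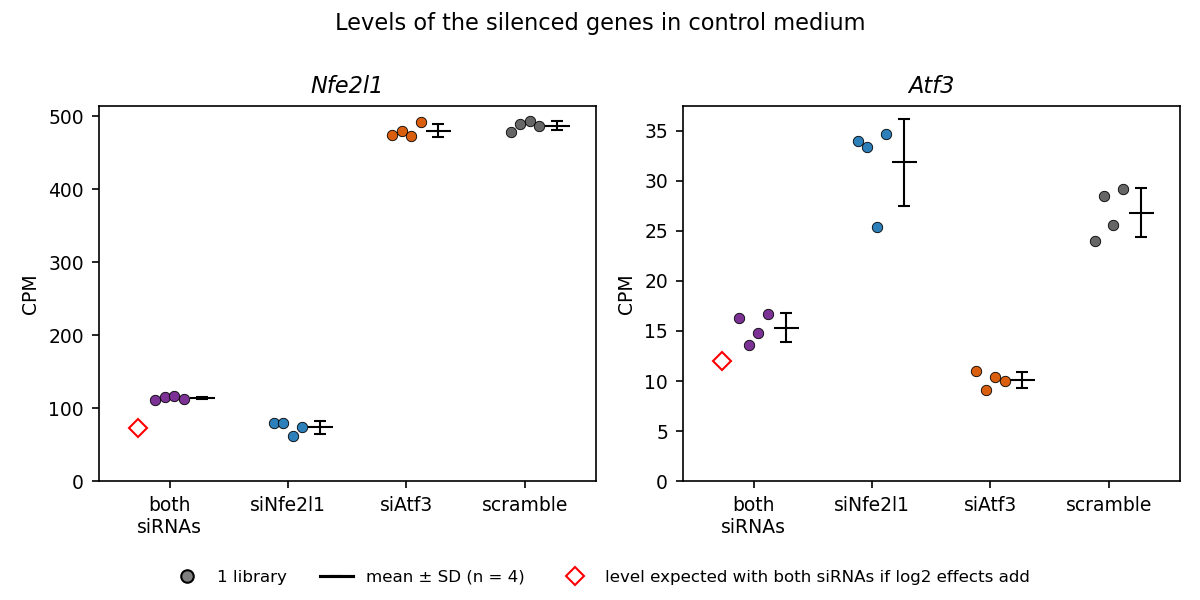
Levels of Nfe2l1 (left) and Atf3 (right) in CPM in control medium, with 1 dot per library, the mean ± SD of 4 libraries beside them and an open diamond at the additive level. Nfe2l1 lay between 112 and 116 CPM with both siRNAs, above the diamond at 72.7 CPM; Atf3 averaged 15.3 CPM, with the diamond at 12 CPM.

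The machinery that loads and uses siRNAs gave 0 calls in the fit of 8 groups and 1 in the fit of the 4 control groups. Of 18 genes of RNA interference, among them Ago2, whose product cuts the target mRNA, and Dicer1, 0 passed in the 8-group fits of edgeR, DESeq2 and limma-voom, and 3 had an unadjusted p under 0.05 in edgeR. The 4-group fit of edgeR called 1 below the additive level, Mov10, the gene of an RNA helicase. Their median departure was 0.013. Ago2 had a departure of 0.00 ± 0.16 and Dicer1 of -0.03 ± 0.11.

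Across all genes few departures were called, and most of those called were small. Of 16984 genes tested, 232 (1.37%) were above and 96 (0.565%) below the additive level at a false discovery rate of 0.05 (edgeR, Benjamini-Hochberg adjustment). The median departure of all genes was 0.00, and 12.4% of all genes had an unadjusted p under 0.05. Among the 328 called genes, 15 departed by more than 2-fold, 60 by 1.5-fold to 2-fold and 253 by less. Their median size was 0.40 on the log2 scale, and 317 were protein-coding. In 22 of the 232 genes above the additive level, the mean with both siRNAs was also above that with scramble.

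The split between directions depended on scaling. TMM factors, which correct library sizes for differences in RNA composition, were 1.05 to 1.06 with both siRNAs and 0.984 to 0.998 with siNfe2l1. They were 1.08 to 1.10 with siAtf3 and 0.981 to 0.995 with scramble. With library totals in place of TMM 154 genes were above and 175 below the additive level, so that the share above was 46.8%, against 70.7% with TMM. The median of all genes then moved to -0.04. The fit of the 4 control groups alone called 757 of 16360 genes (472 above, 285 below), and it held 315 of the 328. DESeq2 called 557 of 16984 genes and limma-voom 365. Since these fits called more of all genes, more calls in a list with them are not by themselves a result about that list. Without siAtf3 library 2, whose omission gave the lowest count, 214 genes were called (147 above), and without library 2 with both siRNAs 63 genes were below.

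A set of 3 libraries deviated from their group means together, namely library 4 with both siRNAs, library 4 with siNfe2l1 and library 3 with siAtf3 (correlations of their deviations 0.466 to 0.531 over 9999 genes). In these libraries longer genes were lower relative to the group mean (Spearman correlations across genes of -0.45 to -0.59, a description, since genes are not independent). The departure itself had a correlation of -0.012 with gene length over 16984 genes. Without these 3 libraries 232 genes were called (166 above, 66 below), of which 202 were among the 328. That exclusion was chosen after the data had been seen.

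Several genes of fatty acid synthesis stood above the additive level. Of 17 genes 8 were above and 0 below, beside 1.37% and 0.565% of all genes, and their median departure was 0.32, beside 0.00 for all genes. The count was 10 in DESeq2 and in the 4-group fit, 8 in limma-voom, 7 without the 3 libraries named above and 7 to 9 when 1 library was left out. Without siAtf3 the median siNfe2l1 effect on these genes was 0.07, and with siAtf3 it was 0.42. The reverse view gives a median siAtf3 effect of -0.09 with siNfe2l1 and -0.59 without it. These 4 medians share libraries with the departure and are given to describe it. More of both silenced mRNAs remained with both siRNAs (23.8% against 15.2% of Nfe2l1, 48.2% against 37.8% of Atf3). For Atf3 the departure, which compares these shares, did not pass. The part of the weaker silencing in the departures of this list, and in those of the other genes below, was not tested.

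Citrate and acetyl-CoA supply came first in the pathway. Acly (ENSMUSG00000020917, GRCm39 chromosome 11, 100367179 to 100418826, minus strand), which encodes the enzyme that splits citrate into acetyl-CoA in the cytosol, stood at 711, 686, 701 and 688 CPM with both siRNAs. It stood at 1018, 1219.7, 1021 and 1129.6 CPM with siNfe2l1, at 446, 405, 419 and 454 CPM with siAtf3 and at 1243, 1187, 1187 and 1041 CPM with scramble. The group with both siRNAs overlapped none of the others, and lay between siAtf3 and siNfe2l1. The observed mean was 697 CPM, against an additive level of 406 CPM, and the departure was 0.78 ± 0.09 (adjusted p = 1.26e-06). In single terms, the siNfe2l1 effect on Acly was 0.69 with siAtf3 and -0.09 without it. Slc25a1, which encodes the carrier that exports citrate from mitochondria, departed by 0.47 ± 0.08 (adjusted p = 0.000277). Acss2, whose product makes acetyl-CoA from acetate, departed by 0.40 ± 0.08, and Me1, whose product supplies NADPH, by 0.50 ± 0.08 (adjusted p = 0.00561 and 0.000123).

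Chain building and desaturation followed. Acaca, which encodes the carboxylase that forms malonyl-CoA, departed by 0.47 ± 0.11 (adjusted p = 0.0116). Fasn, the fatty acid synthase gene, stood at 3431, 3089.8, 3704 and 3672 CPM with both siRNAs, at 4231, 5543, 4221 and 5127 CPM with siNfe2l1, at 2288, 2130.1, 2269.9 and 2277 CPM with siAtf3 and at 4909, 4827, 4352 and 3854 CPM with scramble. Levels with both siRNAs lay between siAtf3 and the other 2 groups, but the departure of 0.54 ± 0.16 did not pass (adjusted p = 0.0805), although DESeq2 and the 4-group fit called it. Elovl6 (ENSMUSG00000041220, GRCm39 chromosome 3, 129326004 to 129432144, plus strand), whose product lengthens palmitate, stood at 75.8, 80.7, 80.3 and 82.6 CPM with both siRNAs. Its levels were 106, 130.3, 111 and 115 CPM with siNfe2l1, 45.4, 46.5, 40.6 and 48.2 CPM with siAtf3 and 112, 101, 96.6 and 94.6 CPM with scramble. Its additive level was 51.7 CPM and its departure 0.63 ± 0.09 (adjusted p = 5.69e-05).

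Scd1 (ENSMUSG00000037071, GRCm39 chromosome 19, 44382894 to 44396318, minus strand), the gene of the main desaturase, stood at 20818, 20652, 20467 and 20058 CPM with both siRNAs. With siNfe2l1 it stood at 18878, 21718, 17845 and 19546 CPM, with siAtf3 at 16616, 14761, 14576 and 16644 CPM and with scramble at 23812, 23854, 24067 and 22871 CPM. With both siRNAs the level overlapped that with siNfe2l1, and was above siAtf3 and below scramble. The observed mean was 20499 CPM, against an additive level of 12900.5 CPM, and the departure was 0.67 ± 0.08 (adjusted p = 2.02e-06). Fads1, another desaturase gene, departed by 0.29 ± 0.07 (adjusted p = 0.0192). The other 8 genes that did not pass, beside Fasn, had departures from -0.03 for Mlxipl, which encodes the glucose-responsive regulator ChREBP, to 0.31 for Pnpla3. Srebf1, the gene of the regulator SREBP1, had a departure of 0.15 ± 0.18 (adjusted p = 0.831).

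**Figure D2:**
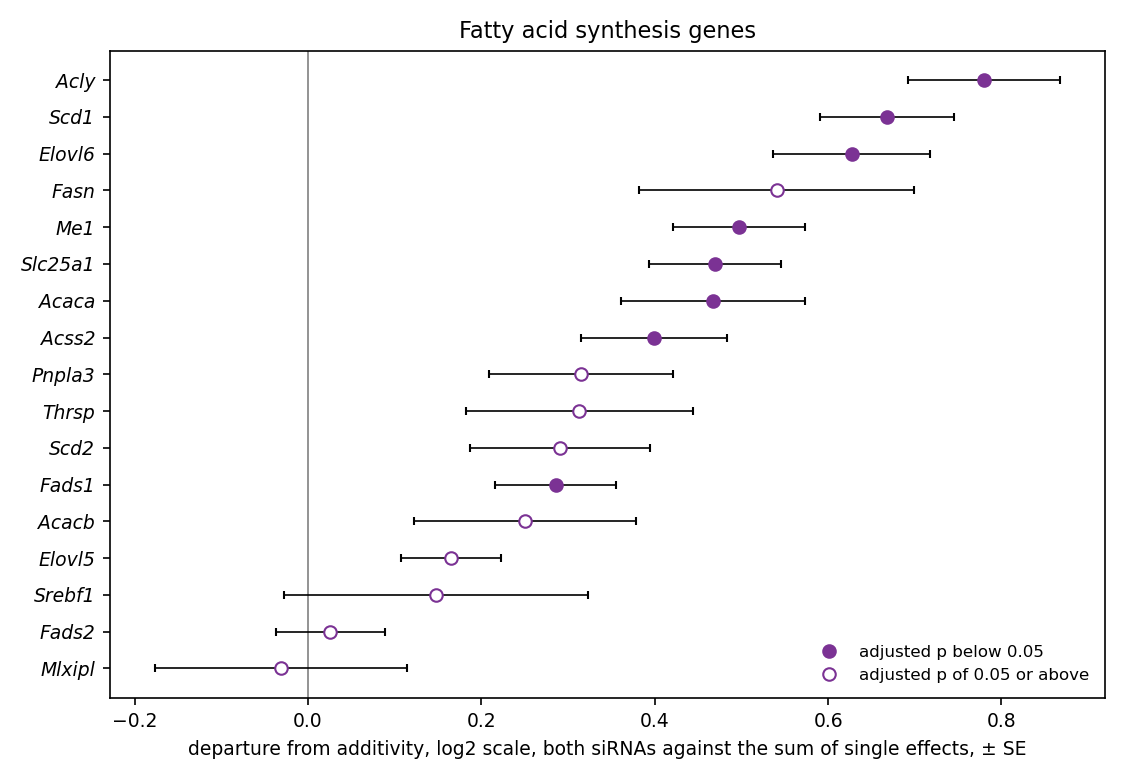
Departure from additivity of the 17 fatty acid synthesis genes (horizontal axis, log2 scale, bars ± SE), sorted by size, with filled dots where the adjusted p was below 0.05. Acly, Scd1 and Elovl6 were highest at 0.78, 0.67 and 0.63, and only Mlxipl lay below 0.

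Pyruvate entry into the mitochondrion lies upstream of citrate. A list of 14 genes of pyruvate dehydrogenase, its regulators and the pyruvate carrier was drawn up after such genes had been seen among the calls, so its counts support nothing. Of the 14, 6 were above and 0 below the additive level, with a median of 0.27. The calls of Pdhb and Mpc1 were lost without any 1 of 12 and 11 of the 16 libraries (adjusted p up to 0.0961 and 0.0996). That of Dld was lost without siNfe2l1 library 3 (0.24, adjusted p = 0.0598) or siAtf3 library 2 (0.25, adjusted p = 0.0582). Without siAtf3 library 2 all 3 of these calls were lost. Pdk2, a kinase gene whose product switches the enzyme off, stood at 80.6, 76.6, 79.5 and 80.8 CPM with both siRNAs, 69.7, 67.1, 63.3 and 76.4 CPM with siNfe2l1, 80.2, 76.1, 79.1 and 84.6 CPM with siAtf3 and 98.4, 96.1, 103 and 104 CPM with scramble. The departure of 0.53 ± 0.08 passed (adjusted p = 5.69e-05), and libraries with both siRNAs were above those with siNfe2l1, overlapped those with siAtf3 and were below those with scramble. Pdk1 departed by 0.50 ± 0.09 and Pdha1, the gene of a catalytic subunit, by 0.27 ± 0.05 (adjusted p = 0.00223 and 0.00223). For branched-chain amino acid and propionate breakdown, a list likewise drawn up afterwards, 6 of 21 genes were above and 0 below (median 0.11). The calls of Bckdhb and Pcca were each lost without any 1 of 11 of the 16 libraries (adjusted p up to 0.13 and 0.121), and with Dld 3 of the 6 were lost without siAtf3 library 2. The call of Aldh6a1, of valine breakdown, was kept in each omission, at 0.31 ± 0.07 (adjusted p = 0.00869).

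Triglyceride storage and lipolysis had 3 of 21 genes above and 0 below the additive level (median 0.15, 20 of 21 positive). The shares of all genes were 1.37% above and 0.565% below, and 49.9% had a positive departure. The list had 6 above in the 4-group fit and 4 in DESeq2, which also called more of all genes. It had 2 without the 3 libraries that deviated together. Lpl, the gene of the lipase that takes up fatty acids from lipoproteins, stood at 5273, 5206, 5264 and 5285 CPM with both siRNAs and 7173, 7531, 6777 and 7715 CPM with siNfe2l1. It stood at 4547, 4361, 4622 and 4519.8 CPM with siAtf3 and 7969, 7729.7, 7842 and 7927 CPM with scramble. No 2 of the 4 groups overlapped, and the departure was 0.33 ± 0.05 (adjusted p = 0.000389). Dgat1, whose product adds the last acyl chain of triglyceride, departed by 0.36 ± 0.08 (adjusted p = 0.015). Gpat3, whose product adds the first, departed by 0.46 ± 0.11 (adjusted p = 0.0131), and its call was lost without library 2 with both siRNAs (0.38, adjusted p = 0.0576). Gpd1, which makes the glycerol backbone, stood at 0.52 ± 0.07 (adjusted p = 1.02e-05) and Gpd2, its mitochondrial counterpart chosen after its value was seen, at 0.45 ± 0.08 (adjusted p = 0.00185). The droplet coat gene Plin1 (0.02 ± 0.06) and the lipase gene Pnpla2 (0.08 ± 0.08) did not pass.

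Adipocyte identity had 4 of 20 genes above and 0 below (median 0.19), beside 1.37% and 0.565% of all genes. The 4 were Lpl, Gpd1, Acsl1 and Pck1. The 4-group fit called 6 above and 1 below. Summed over the list, levels were 21030 to 21680 CPM with both siRNAs, 21190 to 23710 CPM with siNfe2l1, 19380 to 20650 CPM with siAtf3 and 23490 to 24450 CPM with scramble. Pck1 (ENSMUSG00000027513, GRCm39 chromosome 2, 172994841 to 173001066, plus strand), whose product feeds glycerol synthesis in fat, stood at 18.3, 21.2, 17.4 and 17.1 CPM with both siRNAs. Its levels were 7.09, 4.68, 7.65 and 6.19 CPM with siNfe2l1, 15.5, 14.6, 15.1 and 16.5 CPM with siAtf3 and 8.58, 7.03, 12.7 and 11.4 CPM with scramble. Each library with both siRNAs was above all 12 others, and the departure was 0.90 ± 0.19 (adjusted p = 0.0068). Acsl1, which activates fatty acids, departed by 0.46 ± 0.11 (adjusted p = 0.0233), a call lost when any 1 of 11 of the 16 libraries was left out (0.44 to 0.50, adjusted p up to 0.0746). Pparg (0.04 ± 0.07) and Cebpa (0.06 ± 0.10), the genes of the main adipocyte regulators, and Adipoq (0.17 ± 0.06) did not pass.

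Thermogenic genes had 3 of 11 above and 0 below (median 0.23), beside 1.37% and 0.565% of all genes. The list had 5 above in the 4-group fit and 4 in DESeq2, which also called more of all genes. It had 2 with library totals and 1 without the 3 libraries that deviated together. Ucp1 (ENSMUSG00000031710, GRCm39 chromosome 8, 84016981 to 84025081, plus strand), the uncoupling protein of brown fat, was low in these white adipocytes. It stood at 4.2, 4.85, 3.8 and 4.91 CPM with both siRNAs and 2.68, 2.66, 1.66 and 2.59 CPM with siNfe2l1, at 4.5, 2.45, 2.6 and 3.68 CPM with siAtf3 and 5.18, 4.6, 5.32 and 5.44 CPM with scramble. Libraries with both siRNAs were above those with siNfe2l1 and overlapped those with siAtf3 and with scramble. The observed mean was 4.44 CPM against an additive 1.55 CPM, and the departure of 1.53 ± 0.24 was the highest of the 218 called protein-coding genes above the additive level whose mean log2 CPM over all libraries reached 2 (adjusted p = 0.000199; 1.39 to 1.71 over the fits that leave out 1 library). Elovl3, an elongase gene of brown fat, departed by 1.17 ± 0.29 (adjusted p = 0.019) at levels of 1.56, 1.98, 2.5 and 2.34 CPM with both siRNAs and 0.913, 1.3, 0.492 and 0.825 CPM with siAtf3. Its call was lost without siAtf3 library 3 (0.97, adjusted p = 0.0735) or library 3 with both siRNAs (1.08, adjusted p = 0.0525). Prdm16, a regulator of brown fat identity, departed by 0.52 ± 0.13 (adjusted p = 0.0178). That call was lost without siNfe2l1 library 3 (0.48), siAtf3 library 2 (0.49) or 3 (0.49), or library 3 with both siRNAs (0.48), at adjusted p of 0.0507 to 0.0608.

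**Figure D3:**
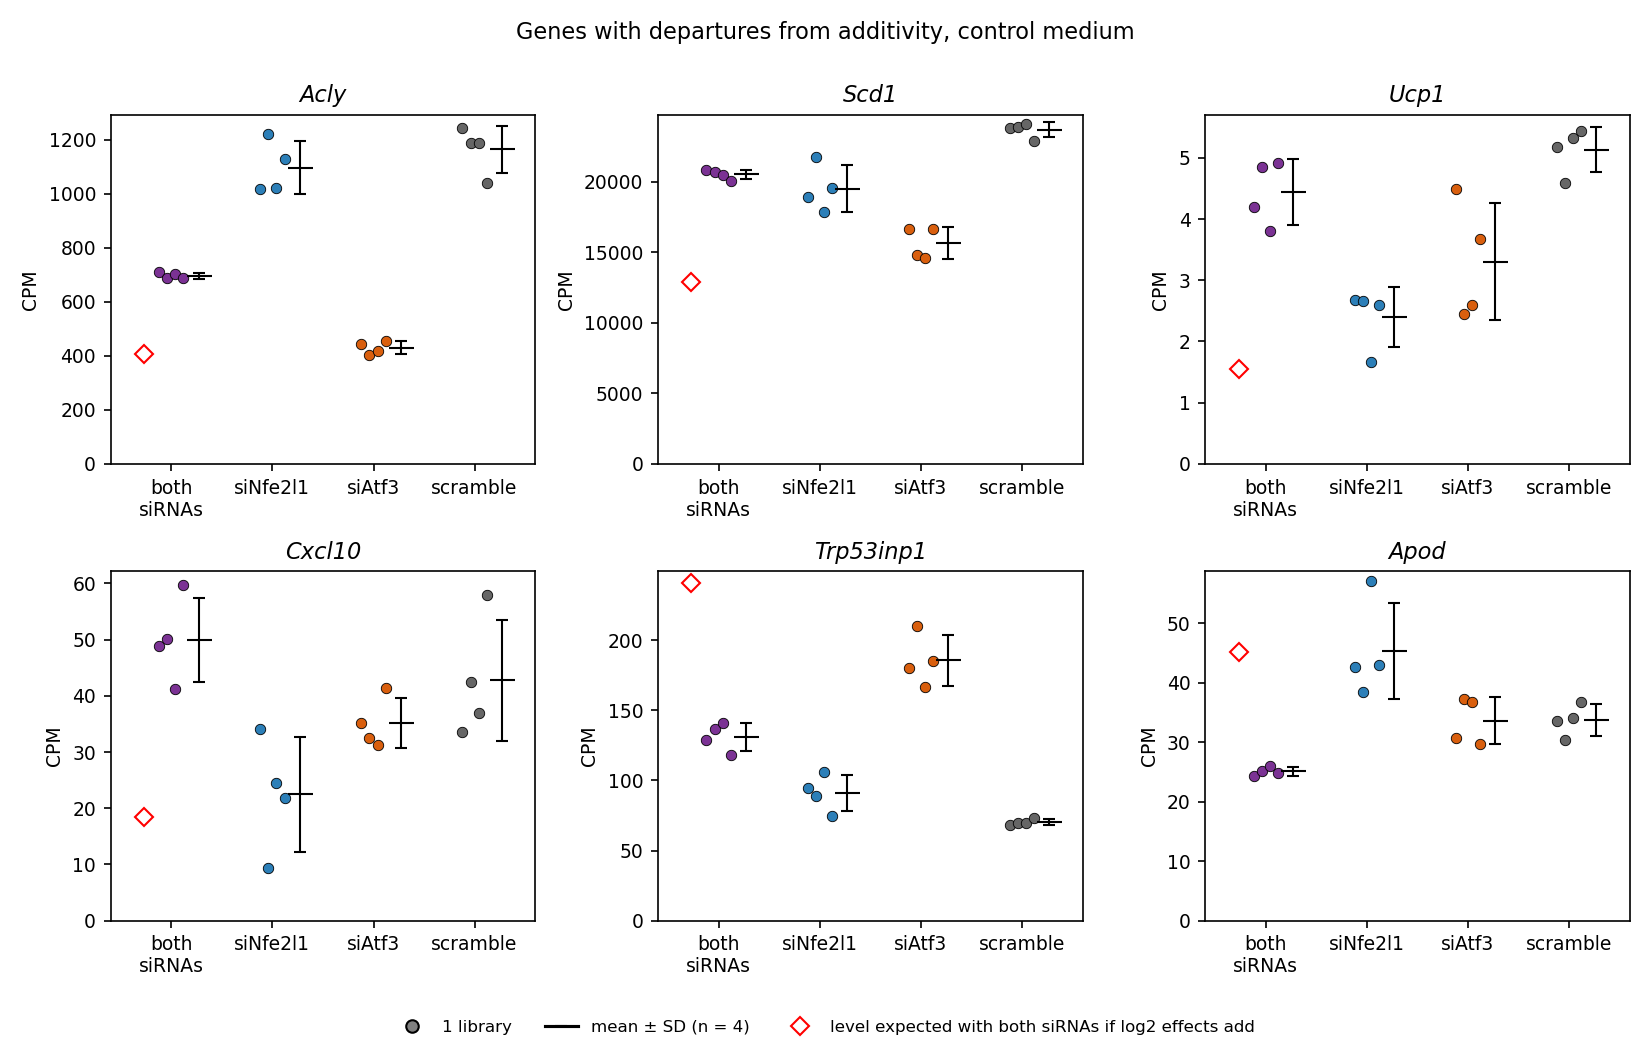
Levels in CPM of 6 called genes in control medium, with 1 dot per library, the mean ± SD of 4 libraries and an open diamond at the additive level. Acly, Scd1, Ucp1 and Cxcl10 lay above the diamond with both siRNAs (697 against 406 CPM for Acly), and Trp53inp1 and Apod lay below it (131 against 240 CPM for Trp53inp1).

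Sterol genes are given, here and in the next paragraph, beside the shares of all genes, 1.37% above and 0.565% below. Cholesterol synthesis and uptake had 2 of 25 genes above and 0 below (median 0.11), with 5 above in the 4-group fit, 4 in DESeq2, 2 in limma-voom and 1 with library totals. Acat2, whose product starts the pathway from acetyl-CoA, stood at 90.9, 96.2, 102 and 98.3 CPM with both siRNAs, 105, 110.5, 98.2 and 119 CPM with siNfe2l1, 72.5, 66.9, 71.2 and 74.4 CPM with siAtf3 and 125, 123, 119 and 115 CPM with scramble. Its departure was 0.60 ± 0.09 (adjusted p = 0.000143). The group with both siRNAs was above siAtf3, overlapped siNfe2l1 and was below scramble.

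LXR targets and cholesterol efflux had 1 of 14 genes above, which was Scd1, and 1 below (median 0.05). The gene below was Abcg1, a sterol exporter gene, at 213, 209.8, 203 and 207 CPM with both siRNAs and 135, 125, 149.9 and 130.2 CPM with siNfe2l1, 266, 271, 250.4 and 274 CPM with siAtf3 and 113, 122, 128 and 129 CPM with scramble. All 4 libraries with both siRNAs were below those with siAtf3 and above the other 2 groups, and their mean of 208 CPM was below the additive level of 291 CPM. The departure was -0.48 ± 0.08 (adjusted p = 0.000158). Scarb1, the HDL receptor gene, chosen after its value was seen, departed by 0.35 ± 0.07 (adjusted p = 0.00247).

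Proteasome subunits, the best known NFE2L1 targets, gave 1 call. Of 33 genes 1 was above and 0 below, beside 1.37% and 0.565% of all genes. A positive departure was found in 31, beside 49.9% of all genes. The median was 0.06 and the range -0.09 to 0.31. This count of signs is that with TMM, and with library totals the median of all genes was -0.04. The median siNfe2l1 effect was -0.33 with siAtf3 and -0.41 without it. The fit of 4 control groups called 6 members, DESeq2 5 and limma-voom 2. These fits also called more of all genes. Psmd3, of the regulatory particle, stood at 119, 117, 110.4 and 121 CPM with both siRNAs and 125, 124, 122 and 132 CPM with siNfe2l1, 136, 137, 142 and 137 CPM with siAtf3 and 178, 191, 191 and 179 CPM with scramble. The group with both siRNAs was below all others, but its mean of 117 CPM was above the additive level of 94 CPM, with a departure of 0.31 ± 0.07 (adjusted p = 0.00602). Psmd1 had a departure of 0.19 ± 0.06 and Psmb5, of the catalytic core, one of 0.09 ± 0.09, and neither passed (adjusted p = 0.0712 and 0.769). The remaining Nfe2l1 mRNA was higher in the same libraries with both siRNAs than with siNfe2l1 (23.8% against 15.2% left), and its part in these values was not tested. Proteasome assembly and p97 partners had 0 of 18 genes called in edgeR, DESeq2 and limma-voom, with 0 at an unadjusted p under 0.05 (median 0.03).

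Counts of calls in stress pathways are given beside the shares of all genes, 1.37% above and 0.565% below. These shares apply to this paragraph and the next. Antioxidant NFE2L2 targets had 1 of 20 genes above and 1 below (median 0.02), with 4 above and 2 below in the 4-group fit and 2 and 2 in DESeq2. Nqo1, a quinone reductase gene, stood at 26.2, 25.3, 24.5 and 27.1 CPM with both siRNAs, 26.1, 21.9, 26.5 and 23.2 CPM with siNfe2l1, 25.8, 26.2, 23.4 and 26.7 CPM with siAtf3 and 16.7, 17.1, 17.7 and 19.2 CPM with scramble. All 3 groups with a target siRNA overlapped and were above scramble, and the departure was -0.45 ± 0.10 (adjusted p = 0.00623). Hmox1, the haem oxygenase gene, stood at 733, 733, 656 and 727 CPM with both siRNAs, 493, 425, 409 and 459.9 CPM with siNfe2l1, 526, 469, 504 and 539 CPM with siAtf3 and 398, 422, 482 and 491 CPM with scramble. Each library with both siRNAs was above all others, with a departure of 0.49 ± 0.13 (adjusted p = 0.0351), a call lost without any 1 of 10 of the 16 libraries (0.44 to 0.54, adjusted p up to 0.0972) and in limma-voom. Of the relatives of NFE2L1, Nfe2l2 (-0.06 ± 0.09) and Nfe2l3 (0.72 ± 0.22) did not pass (adjusted p = 0.877 and 0.0946).

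The integrated stress response had 2 of 24 genes above and 0 below (median 0.14; 4 above and 2 below in the 4-group fit, 3 and 0 in DESeq2, 1 and 0 in limma-voom), the asparagine synthetase gene Asns at 0.30 ± 0.07 (adjusted p = 0.0162) and the amino acid transporter gene Slc7a5 at 0.45 ± 0.12 (adjusted p = 0.0443). The Slc7a5 call was lost without any 1 of 12 of the 16 libraries (adjusted p up to 0.104). Atf4 (0.10 ± 0.19) and Ddit3 (-0.23 ± 0.26), both genes of transcription factors of that response, did not pass. Endoplasmic reticulum chaperones (18 genes, median 0.00), heat shock genes (13, median 0.13), immediate early genes (21, median 0.04) and metallothionein and zinc genes (6, median 0.03) had 0 calls in edgeR. Their members at an unadjusted p under 0.05 numbered 0, 0, 0 and 1 in that order. DESeq2 called 1 of them, the metallothionein gene Mt1 (0.54 ± 0.15, adjusted p = 0.0638 in edgeR), limma-voom called 0, and the fit of 4 groups called 3 heat shock genes above and 1 immediate early gene, Btg2, below. Lysosome and autophagy genes had 1 of 20 above and 0 below (median -0.03; 2 above and 2 below in the 4-group fit, 1 and 2 with library totals, 1 and 1 in DESeq2), the protease gene Ctsb at 0.25 ± 0.06 (adjusted p = 0.0206), whose call was lost without siAtf3 library 2 (0.21, adjusted p = 0.0658).

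Inflammatory and interferon genes varied between libraries of a group. Cytokines and NF-kB targets had 1 of 26 genes above and 0 below (median 0.09), beside 1.37% and 0.565% of all genes. The 4-group fit gave 2 above and 3 below, DESeq2 2 and 1, and library totals 1 and 1, so the balance of directions in this list depended on the fit. The gene above in the 8-group fit was Cxcl10 (ENSMUSG00000034855, GRCm39 chromosome 5, 92494497 to 92496748, minus strand), a T cell chemokine gene that interferon raises, at 48.8, 50.1, 41.3 and 59.7 CPM with both siRNAs. It stood at 34.2, 9.35, 24.5 and 21.9 CPM with siNfe2l1, 35.3, 32.6, 31.3 and 41.4 CPM with siAtf3 and 33.6, 42.5, 37 and 57.9 CPM with scramble. All libraries with both siRNAs were above those with siNfe2l1, and they overlapped the other 2 groups. Library 2 with siNfe2l1 was the lowest of the 16. The departure was 1.44 ± 0.31 (adjusted p = 0.0119), with 1.17 to 1.72 when 1 library was left out, each time past the threshold. The call was lost in the fit of the 4 control groups, and without the 3 libraries that deviated together (highest adjusted p of the 2, 0.101). Il6, an inflammatory cytokine gene, did not pass (0.46 ± 0.35, adjusted p = 0.689).

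Of 24 interferon response genes 0 passed in edgeR, while 9 had an unadjusted p under 0.05. DESeq2 called 2 above the additive level, limma-voom called 0, and the fit of 4 groups called 1 above and 1 below. Their median departure was 0.19. Ifit1, whose product binds foreign RNA, stood at 212, 218, 177 and 248 CPM with both siRNAs and 206, 80.8, 161 and 110.3 CPM with siNfe2l1, 125, 134, 129 and 155 CPM with siAtf3 and 149, 152, 143 and 218 CPM with scramble. The departure of 0.90 ± 0.31 did not pass (adjusted p = 0.158), and libraries with both siRNAs overlapped those with siNfe2l1 and with scramble. Summed levels of the list were 3639 to 4394 CPM with both siRNAs, 3079 to 4190 CPM with siNfe2l1, 3214 to 3629 CPM with siAtf3 and 3398 to 3802 CPM with scramble. Outside the list of 24, the antiviral GTPase gene Mx2 departed by 1.15 ± 0.29 (adjusted p = 0.0361). That call was lost without any 1 of 12 of the 16 libraries (0.96 to 1.34, adjusted p up to 0.106). Also outside the list, Oasl1 and Zc3hav1 were called above and Ly6e below in edgeR. These calls were lost without any 1 of 13, 11 and 4 of the 16 libraries in that order (adjusted p up to 0.131, 0.0851 and 0.0612). Sensors of double-stranded RNA, the form in which siRNAs enter cells, had 0 of 13 genes called in the 8-group fits of edgeR, DESeq2 and limma-voom and 1 at an unadjusted p under 0.05 (median 0.23). The 4-group fit called 1 above, the receptor gene Tlr3.

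The lowest departure among called protein-coding genes of at least that level was that of a p53 target. Trp53inp1 (ENSMUSG00000028211, GRCm39 chromosome 4, 11156431 to 11174379, plus strand), whose product takes part in autophagy and cell death, stood at 129, 137, 141 and 118 CPM with both siRNAs. It stood at 94.5, 88.7, 106 and 74.5 CPM with siNfe2l1, 180.1, 210.3, 167 and 185 CPM with siAtf3 and 68.3, 69.4, 69.5 and 73.4 CPM with scramble. The 4 groups did not overlap. The observed mean of 131 CPM was below the additive 240.5 CPM, and the departure was -0.88 ± 0.11 (adjusted p = 1.76e-05). Of 18 p53 targets it alone passed in the 8-group fit, with 0 above (median -0.09), beside 0.565% below and 1.37% above of all genes. Library totals called 3 below and the 4-group fit 4 below. Cdkn1a, the cell cycle inhibitor gene, had a departure of -0.35 ± 0.11 (adjusted p = 0.119) and was called below the additive level in those other 2 fits.

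Other genes below the additive level included Apod (ENSMUSG00000022548, GRCm39 chromosome 16, 31115010 to 31133626, minus strand), a lipid-binding lipocalin gene, at 24.3, 25.2, 26 and 24.9 CPM with both siRNAs. Its levels were 42.7, 38.5, 57.1 and 43 CPM with siNfe2l1, 30.8, 37.3, 36.8 and 29.7 CPM with siAtf3 and 33.6, 30.4, 34.1 and 36.9 CPM with scramble. Each library with both siRNAs was below all 12 others, and the departure was -0.85 ± 0.16 (adjusted p = 0.00197). Akr1cl, of the aldo-keto reductases, stood at 23.5, 22.6, 23.3 and 25.2 CPM with both siRNAs, 9.81, 12.3, 15.2 and 13.5 CPM with siNfe2l1, 33.1, 39.1, 37.3 and 33.5 CPM with siAtf3 and 13.1, 11.8, 11.2 and 12.8 CPM with scramble. The group with both siRNAs lay between siAtf3 and the other 2 groups (departure -0.65 ± 0.14, adjusted p = 0.00591). Cyp2f2, a cytochrome P450 gene, departed by -0.68 ± 0.10 and Mmp27, a matrix metalloproteinase gene, by -0.79 ± 0.12 (adjusted p = 5.69e-05 and 0.000123).

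Ogdhl, whose product resembles a 2-oxoglutarate dehydrogenase subunit, stood at 6.39, 7.88, 8.06 and 8.84 CPM with both siRNAs, 2.22, 2.13, 2.5 and 2.15 CPM with siNfe2l1, 13.5, 14.7, 12.6 and 13.5 CPM with siAtf3 and 2.16, 2.55, 2.78 and 2.11 CPM with scramble. Again the group with both siRNAs lay between siAtf3 and the other 2 groups, and the departure was -0.70 ± 0.18 (adjusted p = 0.0246). That call was lost without scramble library 1 (-0.66) or 4 (-0.65), siNfe2l1 library 3 (-0.65), siAtf3 library 2 (-0.66) or library 1 with both siRNAs (-0.62), at adjusted p of 0.0619 to 0.0798. Def6, Psrc1 and Arrdc1, a signalling, a microtubule and an arrestin-domain gene, departed by -0.62 ± 0.14, -0.61 ± 0.13 and -0.60 ± 0.11 (adjusted p = 0.00972, 0.00649 and 0.00162). Chosen after their values were seen, Aldh1a1, whose product makes retinoic acid, departed by -0.60 ± 0.10 and Slc40a1, the iron exporter gene, by -0.56 ± 0.08 (adjusted p = 0.000289 and 6.08e-05).

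Other genes above the additive level were of mixed function. Rasd1, a Ras-like gene that glucocorticoids raise, stood at 23.7, 21.8, 21 and 22.9 CPM with both siRNAs, 30.1, 27.1, 25.1 and 29.9 CPM with siNfe2l1, 14.4, 8.26, 12.2 and 12.3 CPM with siAtf3 and 31.7, 29.9, 29.5 and 30.2 CPM with scramble. With both siRNAs it was above siAtf3 and below the other 2 groups, with a departure of 1.04 ± 0.19 (adjusted p = 0.00236). Tmem45b departed by 0.97 ± 0.12, Cdsn, which encodes an adhesion protein of skin, by 0.94 ± 0.17 and Sorcs2, a sorting receptor gene, by 0.91 ± 0.18 (adjusted p = 1.02e-05, 0.00128 and 0.00303). Ptgds, which makes prostaglandin D2, departed by 0.85 ± 0.18 (adjusted p = 0.00428). C3, the central complement gene, chosen after its value was seen, departed by 0.49 ± 0.09 (adjusted p = 0.00162).

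Some high values may share reads with a neighbour. Ccdc152 (1.31 ± 0.14, adjusted p = 1.26e-06; 4.27, 4.89, 4.15 and 4.04 CPM with both siRNAs and 11, 11.8, 10.8 and 12 CPM with scramble) overlaps Selenop on the opposite strand. Selenop, the gene of a selenium carrier with a mean of 974 CPM with scramble, itself departed by 0.29 ± 0.05 (adjusted p = 0.000693). The linker histone gene H1f4 (1.20 ± 0.17, adjusted p = 3.2e-05) overlaps H2bc6 on the same strand, whose departure was 0.84. Whether reads were counted by strand is not given in the sources used here, so these values are uncertain. Cxcl10 and Ctsb likewise overlap Art3 (departure 0.38, adjusted p = 0.129) and Fdft1 (0.02, adjusted p = 0.958) on the opposite strand. So do Slc7a10 with Lrp3 (mean of 152 CPM with scramble, departure 0.198) and Mttp with Trmt10a (9.81 CPM, -0.0382). Gpat3 overlaps 4930458D05Rik (2.69 CPM, 0.747, adjusted p = 0.0546), also on the opposite strand. Some other named genes have such neighbours too.

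**Figure D4:**
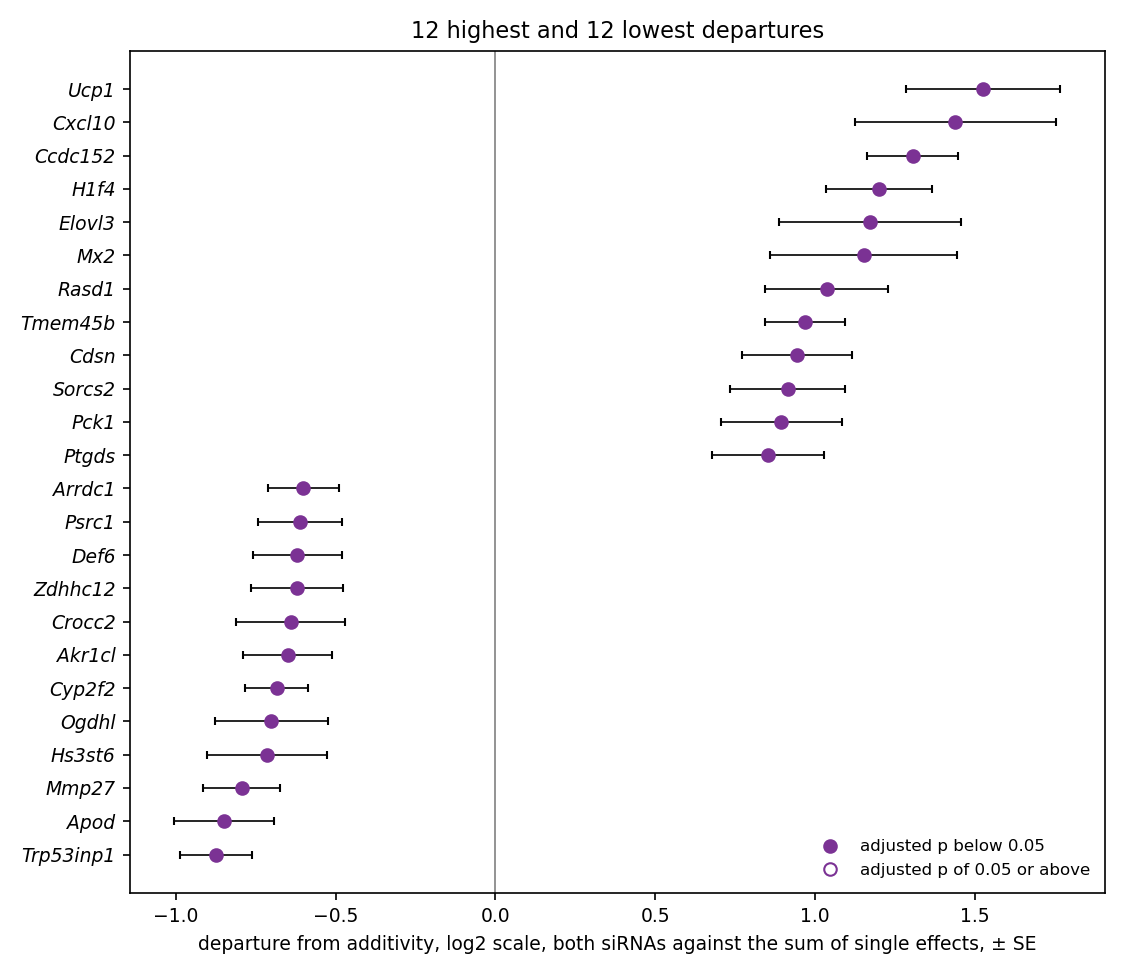
Departure from additivity (horizontal axis, log2 scale, bars ± SE) of the 12 highest and the 12 lowest called protein-coding genes whose mean log2 CPM reached 2. The highest were Ucp1 at 1.53 and Cxcl10 at 1.44, and the lowest was Trp53inp1 at -0.88.

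Markers of other cell types were set beside these results, and beside the 49.9% of all genes with a positive departure. Of 15 macrophage markers 0 passed in edgeR or limma-voom, 1 passed in DESeq2 (below the additive level) and 4 had an unadjusted p under 0.05, and 14 had a negative departure (median -0.20). Their summed level was 510.3 to 561.2 CPM with both siRNAs, 313 to 470.8 CPM with siNfe2l1, 317.8 to 415.5 CPM with siAtf3 and 234.4 to 273.3 CPM with scramble. The mean sum with both siRNAs was 525.9 CPM, below the additive 621.7 CPM. C1qa, a complement gene of macrophages, had a departure of -0.34 ± 0.15 (adjusted p = 0.349). Fibroblast (14 tested, median 0.03), endothelial (11, median 0.11), smooth muscle and pericyte (11, median -0.16), T cell (2, median -0.16) and mesothelial and epithelial markers (2, median 0.02) had 0 calls in edgeR and limma-voom, with 1, 1, 3, 0 and 0 genes at an unadjusted p under 0.05 in that order. DESeq2 called 1 of them, the pericyte gene Cspg4, above the additive level. The 4-group fit called 4 above, namely Cspg4, Pdgfrb of pericytes, Cdh5 of endothelium and Col6a3 of fibroblasts. Summed fibroblast markers were 30490 to 32170 CPM with both siRNAs, 40830 to 44160 CPM with siNfe2l1, 27260 to 28680 CPM with siAtf3 and 37740 to 39810 CPM with scramble. The part of these cells in the departures was not tested.

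Mitochondrially encoded mRNAs had 1 of 13 genes above and 0 below (median 0.31), the cytochrome oxidase gene mt-Co1 at 0.38 ± 0.09 (adjusted p = 0.0139). The shares over all genes were 1.37% above and 0.565% below. The 4-group fit called 4 of the 13. The mt-Co1 call was lost with library totals, which called 0, and without the libraries numbered 1 (highest adjusted p of the 2, 0.114). Of 26 nuclear genes of the respiratory chain 0 passed in edgeR and limma-voom, 1 passed in DESeq2 and 1 in the 4-group fit, both above, and 4 had an unadjusted p under 0.05 (median 0.08). Circadian clock genes (17, median 0.09) and proliferation genes (13, median 0.04) had 0 calls in all 3 tools, with 3 and 0 genes at an unadjusted p under 0.05.

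**Figure D5:**
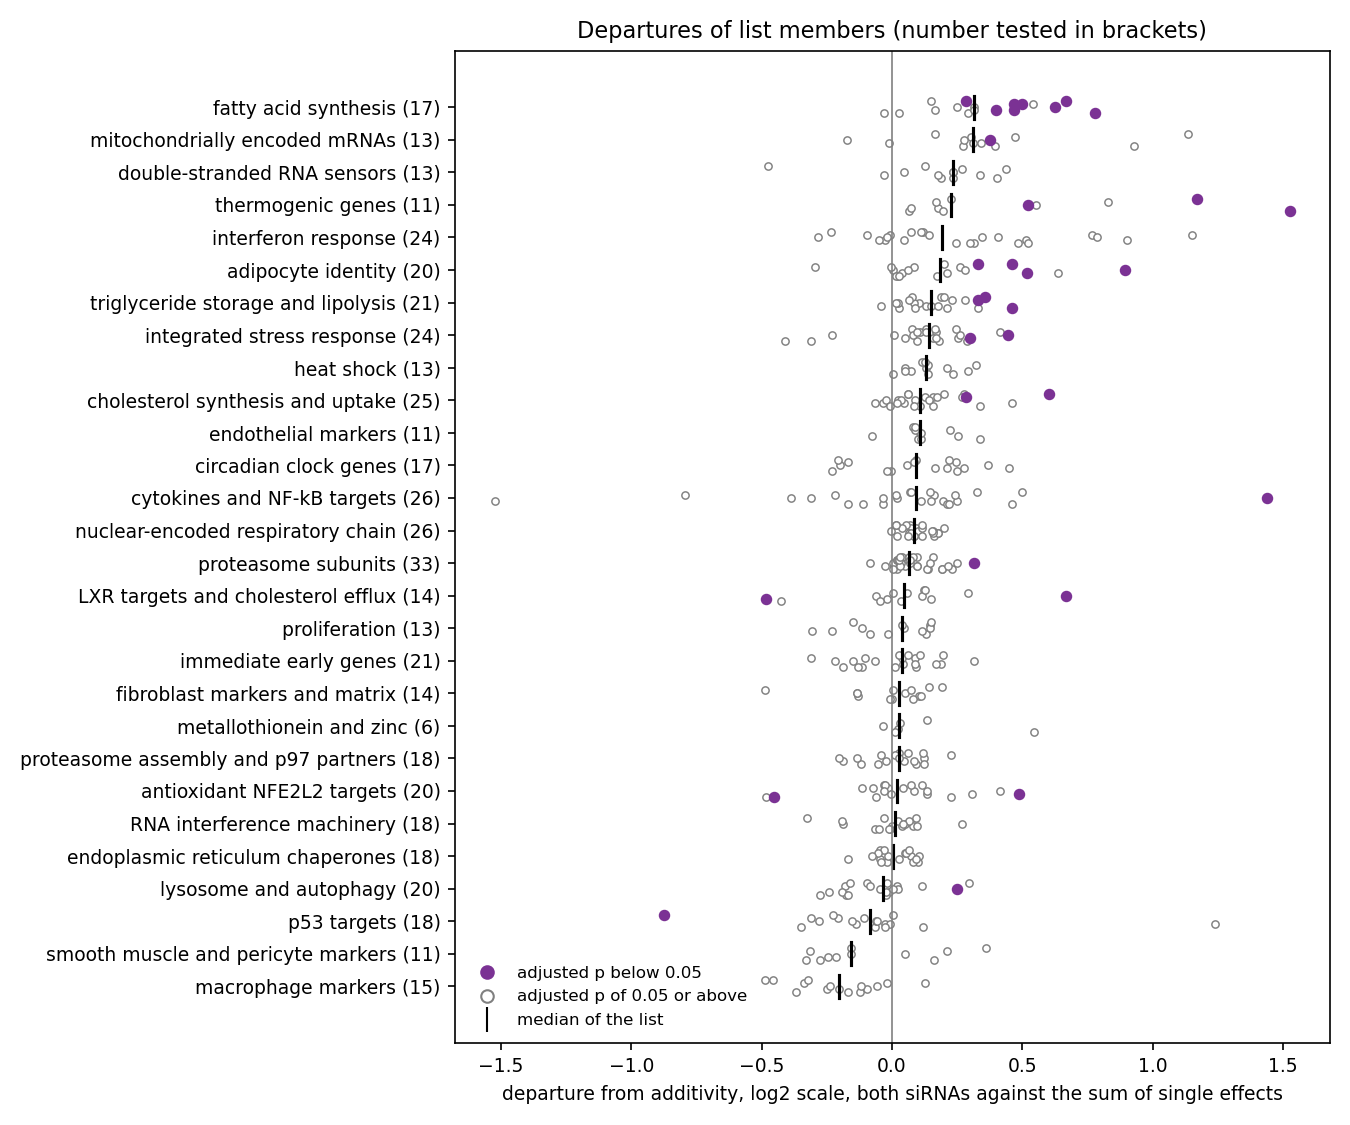
Departure from additivity (horizontal axis, log2 scale) of the tested members of 28 gene lists with at least 6 tested members, sorted by list median (black bar). Filled dots passed at an adjusted p below 0.05; the fatty acid synthesis list holds 8 of them, all to the right of 0, with a median of 0.32.

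The departures were also set beside those in cholesterol, which rest on 16 other libraries. Of the 232 genes above the additive level in control medium 224 (96.6%) had a positive departure in cholesterol, and 134 (57.8%) were called in the same direction there. Of the 96 genes below it 90 (93.8%) had a negative departure in cholesterol and 39 (40.6%) were called. No gene of either set was called in the opposite direction. Over all 16984 genes 62.2% had the same sign in both media and 4.63% were called in cholesterol in that direction. Median departures of the 232 were 0.39 in control medium and 0.32 in cholesterol, and those of the 96 were -0.41 and -0.29. The control values are enlarged by the choice of genes, which was made on them.

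For Nfe2l1 the departure was 0.52 in cholesterol, for Acly 0.90, for Scd1 0.44, for Ucp1 1.45 and for Trp53inp1 -0.95, each beside its control value given above. Cxcl10 (0.16), Pck1 (0.04) and Rasd1 (0.12) had smaller values in cholesterol. The difference between the control and cholesterol departures was tested itself. In edgeR 0 genes (0%) passed, with 1196 at an unadjusted p under 0.05 (7.04%). DESeq2 and limma-voom called 0 as well, and without the libraries numbered 1, 33 genes passed. These tests do not show that departures were alike in the 2 media.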

How the data were processed

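The submitters' processing notes name fastp, HISAT2 2.0.5, featureCounts 1.5.0-p3 and build GRCm39. Whether strand was used and how multiply aligned reads were treated is not given in the sources used here. The authors deposited raw counts for 56748 genes in 1 table. Columns with an extra C in the siRNA name were taken as the cholesterol groups.

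Genes were kept by filterByExpr (minimum count 10, minimum total 15), which left 16984. Counts of all 32 libraries in 8 groups were scaled by TMM and fitted with edgeR 4.0.16 (R 4.3.3; robust quasi-likelihood, 24 residual degrees of freedom). Each adjusted p is a Benjamini-Hochberg value over all genes tested, and calls were made below 0.05. CPM use TMM-scaled library sizes, log2 values are given ± SE and CPM ± SD. Alternatives included DESeq2 1.42.0 (Wald test) and limma 3.58.1 (voom). With at least 24263362 counts per library, values well below 1 CPM rest on few counts. Pairwise comparison of replicate counts found no copied library (chi-square per degree of freedom 2.67 to 13.7).

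Data were simulated from the group means and spread of these libraries (16964 genes), each library drawn independently. At each size 50 genes were changed, all with a mean log2 CPM of at least 2. The interaction test recovered 34% of departures of 1.25-fold, 86% of 1.5-fold, 98% of 2-fold and 100% of 4-fold, with 5 false calls in 164. The deviations that some real libraries shared were not simulated. These rates therefore need not hold for the real data or for genes of lower level.

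The comparison, the 30 lists and the rule for named genes were chosen with earlier results of these data known. Named were Nfe2l1 and Atf3, the 12 highest and 12 lowest departures among called protein-coding genes with a mean log2 CPM of 2 or more, up to 4 called members of each list by adjusted p, and a list of genes of interest. Genes said to be chosen after their values were seen, genes called in an alternative fit alone, and 2 lists were added later. Some list members are not reported here by name. Lists are described by counts and medians, with no test.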

Additional observations from a re-analysis of the deposited data

Results flagged for a closer look

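Of 112 groups of 4 libraries examined, 6 held a single far value. In each, its gap to the nearest neighbour, divided by the range of the 4, exceeded Dixon's 95% critical value for 4 samples. Chance gives such a value in about 1 in 20 groups, a share near the 6 of 112 found here. Atf3 stood at 25.4 CPM in siNfe2l1 library 3, against 33.3 to 34.6 CPM in the other 3 libraries of that group. Ucp1, the uncoupling protein gene, stood at 1.66 CPM in the same library and at 2.59 to 2.68 CPM in the other 3. In library 4 with both siRNAs the antiviral gene Mx2 stood at 33.3 CPM, against 25.5 to 26.5 CPM in the other 3. In library 3 with both siRNAs Hmox1 stood at 656 CPM, against 727 to 733 CPM. Fasn stood at 2130.0 CPM in siAtf3 library 2, against 2270.0 to 2288 CPM in the other 3. The summed level of the 20 adipocyte identity genes was 23490 CPM in scramble library 2, against 24310 to 24450 CPM in the other 3. Leaving out siNfe2l1 library 3 gave a Ucp1 departure of 1.39, which passed, and an Atf3 departure of 0.26, which did not.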

How the results depend on the processing

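The count of 328 called genes (232 above and 96 below the additive level) came to 757 (472 and 285) in the fit of the 4 control groups and to 557 (397 and 160) in DESeq2. It was 356 (264 and 92) with DESeq2's size factors in edgeR, 365 (253 and 112) in limma-voom, 305 (236 and 69) without a filter on low counts and 356 (239 and 117) without the libraries numbered 1. Library totals gave 154 above and 175 below. Leaving out 1 of the 16 control libraries gave 214 to 339 calls, 147 to 238 above and 63 to 101 below. Without the 3 libraries that deviated together, an alternative chosen after the data were seen, 232 were called. With the replicate number as a block (replicate block) 391 were called (270 above, 121 below), 324 of them among the 328; among list members it added calls for Mt1, Cspg4, C1qb and Ccl5, besides others. Replicate numbers were not treated as pairing: deviations of same-numbered libraries correlated at -0.319 to 0.515, over 0.1 in 5 of 24 pairs, and 3 of 16 libraries correlated best with their own number.

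The Nfe2l1 departure kept its direction and its call in every alternative with a test, and ranged from 0.57 to 0.69 over omissions of 1 library. Its level with both siRNAs against siNfe2l1 did too (0.54 to 0.66). The Atf3 level difference, not past the threshold in the 8-group fit, passed in the fit of 4 groups (0.603, adjusted p = 0.0003); over omissions it was 0.56 to 0.66. The Atf3 departure was 0.26 to 0.41 over omissions. The difference between the media gave 0 calls in each omission and 33 without the libraries numbered 1. The cause of these changes was not tested.

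Of the 85 genes followed through the alternatives, 0 changed sign in any test. The 85 include genes not called in the main fit, among them Fasn and Adipoq, which had no call to lose. Losses are therefore a larger share of the called genes than of the 85. Calls were lost for 14 with library totals, 9 without a filter, 5 in the fit of 4 groups, 12 without the libraries numbered 1, 18 without the 3 libraries, 4 to 16 on omission of 1 library, 2 in limma-voom, 1 with the block and 0 in DESeq2. On the plain CPM scale, where additivity means that differences add, Prmt5 had a departure of -0.373 CPM, against 0.31 on the log2 scale; the other genes kept their sign. At this depth departures under 1.5-fold were often missed in simulated data, so a list without calls is not shown to be additive.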

Other observations

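Some called genes outside the lists described above are given as values. Slc7a10, an amino acid transporter gene of adipocytes, departed by 0.64 ± 0.14 (adjusted p = 0.00896), at 14.5, 13.7, 14.4 and 16.2 CPM with both siRNAs, 20.5, 19.3, 16.3 and 20.7 CPM with siNfe2l1, 11.3, 9.14, 11.7 and 12.9 CPM with siAtf3 and 23.6, 23.9, 19.9 and 23.9 CPM with scramble. The group with both siRNAs was above siAtf3 and below the other 2 groups. Mttp, whose product loads lipid onto lipoproteins, departed by 0.57 ± 0.11 (adjusted p = 0.00333) and Gpam, the mitochondrial acyltransferase gene of glycerolipid synthesis, by 0.55 ± 0.13 (adjusted p = 0.013). The Gpam call was lost with library totals and without the 3 libraries that deviated together. Prmt5, an arginine methyltransferase gene, departed by 0.31 ± 0.05 (adjusted p = 0.000693), and its libraries with both siRNAs were above siNfe2l1 and below the other 2 groups. All 4 were chosen after their values were seen. Slc7a10 and Mttp overlap a gene on the opposite strand, as given above, so their values are uncertain.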
